A study of Komagataella phaffii CBS 7435 with 54 samples.

Results

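MXR1 (PAS_chr4_0487), MIT1 (PAS_chr3_0836) and TRM1, also called PRM1 (PAS_chr4_0203), are transcription factors of methanol gene control in the methylotrophic yeast Pichia pastoris (Komagataella phaffii). The 3 genes were chosen by these identifiers among the 5318 systematic names on the array, and each is represented by 1 probe. The identifiers follow the GS115 annotation (assembly ASM2700v1), in which MXR1 and TRM1 lie on chromosome 4 and MIT1 lies on chromosome 3. The names are those given with the identifiers for this gene set, and the annotation itself carries only the identifiers.

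In methylotrophic yeasts, the genes of the methanol pathway are strongly repressed on excess glucose, released from repression when the carbon source becomes scarce, and fully induced only by methanol. Mxr1 is a zinc finger protein related to Adr1 of Saccharomyces cerevisiae, is required for growth on methanol and activates genes of methanol oxidation and of peroxisomes. Mit1 and Trm1 are zinc cluster proteins that act with Mxr1 as activators at the promoter of AOX1, the gene of the main alcohol oxidase.

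The study asked how transcript levels change as the specific growth rate approaches zero. In the retentostat, in which a filter keeps all cells in the bioreactor while the glucose feed is lowered, cells were sampled after 21, 65, 116, 380 and 545 h, called days 1, 3, 5, 16 and 23. They were set against steady-state, glucose-limited chemostats at dilution rates of 0.025, 0.05, 0.075 and 0.1 h−1, and total RNA of each sample was hybridized together with a reference pool that included cells grown on glycerol, glucose and methanol. Glucose was the limiting carbon source of all 9 conditions. The labels give the strain as CBS 7435, and the methods describe a single-colony isolate of its Δflo8 mutant, in which a KanMX cassette replaces part of FLO8, so that all 9 conditions share this genotype. The retentostats ran in larger bioreactors than the chemostats and for far longer, and these differences cannot be told apart from growth rate in any comparison between the systems. Each condition has 3 numbered replicates, each on a pair of arrays with opposite dyes. The methods describe duplicate cultures, so at least some replicates share a culture, and each SD and p-value refers to the numbered replicates, whose spread may be partly technical. The paper describes duplicate retentostat runs, so the retentostat days are serial samples of the same cultures. The model treats the days as independent, and which replicate came from which culture is not stated.

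Values are log2 ratios of culture over pool, averaged over both dye orientations. A value of 1 means that the transcript was 2 times as abundant in the culture as in the pool, relative to all genes on the array. Since every array is centred on its own genes, a change in total RNA per cell is not visible, and the ratio of one gene is not comparable in level with that of another. All 3 probes were well above background in both channels of all 54 arrays, and 0 of the 108 spots of each probe had an outlier or saturation mark. In all 54 arrays the pool channel matched the pool profile of the other arrays better than the culture channel did. Culture RNA gave dimmer spots in the retentostat, with condition medians of 2112 to 2729 intensity units, than in the chemostats, with 4008 to 4840. The part of this difference in any comparison between the systems was not tested.

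All 3 factors had higher transcript levels in the retentostat than in the chemostat at 0.1 h−1, but they followed different courses. MXR1 was already higher in the slower chemostats, and among the retentostat days a single pair, days 23 and 3, differed. MIT1 differed little among the chemostats and rose on through the retentostat to 2.10 times its level at 0.1 h−1 on day 23. TRM1 was higher at 0.025 h−1 than at faster rates, had its highest mean on day 5, which did not differ from day 3, and differed by −0.0024 between days 23 and 1. These courses are seen in the plot of all replicates.

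**Figure D1:**
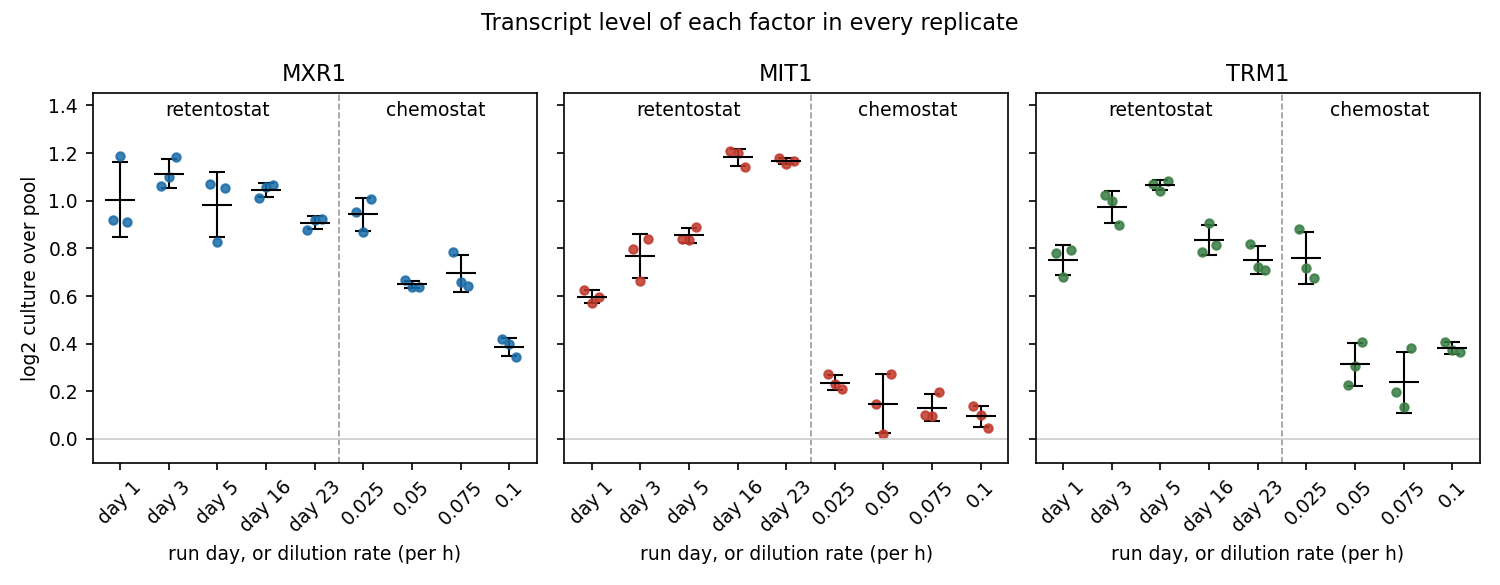
Log2 ratio of culture over pool for MXR1, MIT1 and TRM1 in the 5 retentostat samples (left of the dashed line) and the 4 chemostats (right), with points for the 3 replicates and bars for the mean and SD. MXR1 is lowest at 0.1 h−1 (0.39), MIT1 climbs to means of 1.18 and 1.17 on days 16 and 23, and TRM1 has its highest mean on day 5 (1.06).

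MXR1, the main activator of the methanol genes, was above its pool level in every replicate. In the retentostat its log2 ratios were 0.92, 1.19 and 0.91 on day 1, 1.06, 1.10 and 1.18 on day 3, 1.07, 0.83 and 1.05 on day 5, 1.01, 1.06 and 1.06 on day 16, and 0.88, 0.92 and 0.92 on day 23. In the chemostats they were 0.95, 0.87 and 1.01 at 0.025 h−1, 0.67, 0.64 and 0.64 at 0.05 h−1, 0.78, 0.66 and 0.64 at 0.075 h−1, and 0.42, 0.40 and 0.34 at 0.1 h−1. Every replicate of the other 8 conditions thus lay above the 3 replicates at 0.1 h−1, while the retentostat replicates (0.83 to 1.19) and those at 0.025 h−1 (0.87 to 1.01) covered much of one range. Separation of replicates is common on these arrays, and 88.4% of all probes had no overlap between day 23 and 0.1 h−1.

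MXR1 changed among the chemostats. Its level at 0.025 h−1 (0.94 ± 0.070, SD, n = 3) exceeded that at 0.1 h−1 (0.39 ± 0.038) by 0.56 (SE 0.065, limma adjusted p = 1.2e-07), which is 1.47-fold. Regardless of sign, this change was larger than that of 89.3% of all probes. Even at 0.075 h−1 MXR1 was 0.31 higher (SE 0.065, adjusted p = 0.0018), a larger change than that of 95.3% of all probes regardless of sign, and at 0.05 h−1 it was 0.26 higher (SE 0.065, adjusted p = 0.0021). With the slide as a block these last differences were 0.27 (adjusted p = 0.062) at 0.075 h−1 and 0.20 (adjusted p = 0.076) at 0.05 h−1 and no longer passed. On the 1 slide shared by 0.05 and 0.1 h−1, which held 1 array of each with opposite dyes, the difference was −0.082. Across the 4 chemostats MXR1 fell by 0.24 per doubling of the dilution rate (SE 0.031, adjusted p = 3.9e-07). Of all probes, 65.5% had a slope that passed in either direction.

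Within the retentostat, MXR1 was lower on day 23 than on day 3 (−0.21, SE 0.065, adjusted p = 0.0087), with no overlap between the replicates. This was the 1 called pair among the days, in a comparison that called 63.1% of all probes, and with the culture in Cy5 alone the difference was −0.13 (adjusted p = 0.27). The moderated F test over the 5 days gave an adjusted p of 0.065, in a test that 83.6% of all probes passed, and the range of its 5 means was 0.21 against a median range of 0.36 over all probes. Day 23 differed from day 1 by −0.097 (95% confidence interval −0.23 to 0.039, adjusted p = 0.19). Day 3 exceeded day 1 by 0.11 (adjusted p = 0.18), and without replicate 2 of day 1, the highest of its group, by 0.20 (adjusted p = 0.011). Between day 23 and the chemostat at 0.025 h−1 the difference was −0.035 (95% confidence interval −0.17 to 0.10, adjusted p = 0.64). Ordered by mean, the levels of MXR1 ran from day 3 through days 16, 1 and 5 and the chemostat at 0.025 h−1 to day 23 with no neighbouring pair differing. Pairs further apart in this order could differ. Day 3 exceeded 0.025 h−1 by 0.17 (SE 0.065, adjusted p = 0.023), without overlap. That change was larger in size than that of 35.7% of all probes. The other retentostat days were not called against 0.025 h−1. A step of 0.21 (adjusted p = 0.0046, in a comparison that called 84.1% of all probes) separated day 23 from 0.075 h−1, which did not differ from 0.05 h−1 (adjusted p = 0.64).

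MIT1, an activator at the AOX1 promoter, had the reverse division between the systems. Its log2 ratios in the retentostat were 0.62, 0.57 and 0.59 on day 1, 0.80, 0.66 and 0.84 on day 3, 0.84, 0.83 and 0.89 on day 5, 1.21, 1.20 and 1.14 on day 16, and 1.18, 1.15 and 1.17 on day 23. In the chemostats they were 0.27, 0.23 and 0.21 at 0.025 h−1, 0.15, 0.023 and 0.27 at 0.05 h−1, 0.10, 0.095 and 0.20 at 0.075 h−1, and 0.14, 0.10 and 0.048 at 0.1 h−1. The lowest retentostat replicate lay above the highest chemostat replicate, and days 16 and 23 lay above all earlier days. How many of all probes separate in this way was not counted.

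Among the chemostats MIT1 stayed near its pool level. The difference from 0.1 h−1 was 0.036 at 0.075 h−1 (95% confidence interval −0.072 to 0.14, adjusted p = 0.69) and 0.053 at 0.05 h−1 (−0.055 to 0.16, adjusted p = 0.42). At 0.025 h−1 MIT1 was 0.14 higher (SE 0.052, adjusted p = 0.022), a difference of 1.10-fold. That difference was not called with the slide as a block (0.12, adjusted p = 0.12), with median centring in place of LOESS (0.0051, adjusted p = 0.96), without replicate 1 at 0.025 h−1 (0.12, adjusted p = 0.079) or without replicate 3 at 0.1 h−1 (0.12, adjusted p = 0.093). The slope over the 4 chemostats, −0.068 per doubling of the dilution rate (SE 0.025, adjusted p = 0.019), was lost under the same settings, with an adjusted p of 0.078 without replicate 1 at 0.025 h−1 and of 0.060 without replicate 3 at 0.1 h−1. The F test over the 4 chemostats, which 75.3% of all probes passed, gave an adjusted p of 0.092.

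The first retentostat sample already stood apart. On day 1 MIT1 was at 0.60 ± 0.027 against 0.24 ± 0.032 in the chemostat at 0.025 h−1 (SD, n = 3 each), a difference of 0.36 (SE 0.052, adjusted p = 3.1e-06). It was 1 of the 3 factors to differ there, in a comparison that called 58.1% of all probes. MXR1 differed by 0.062 (95% confidence interval −0.073 to 0.20) and TRM1 by −0.0059 (−0.13 to 0.12).

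Inside the retentostat, where the type of bioreactor did not differ, MIT1 went on rising. The level on day 23 exceeded that on day 1 by 0.57 (SE 0.052, adjusted p = 1.1e-09), or 1.48-fold, a change larger in size, regardless of sign, than that of 82.5% of all probes. MIT1 was the 1 factor of the 3 called in this comparison, which called 70.4% of all probes, and 36.2% as higher. Over the 5 days it gained 0.13 per doubling of the run time (SE 0.0096, adjusted p = 1.4e-11), where 74.7% of all probes had a slope that passed. The sampled days are unequal times apart, and no test compared the gains between them. Day 3 was 0.17 above day 1 (adjusted p = 0.010, with 44.6% of all probes called), but 0.13 (adjusted p = 0.056) without replicate 3 of day 3 and 0.17 (adjusted p = 0.054) with the slide as a block. Day 5 was 0.088 above day 3 (adjusted p = 0.28). Day 16 was 0.33 above day 5 (SE 0.052, adjusted p = 3.5e-05), larger in size than the change of 88.6% of all probes, of which 40.6% were called. Days 23 and 16 differed by −0.015 (95% confidence interval −0.12 to 0.093, adjusted p = 0.91). In the order of the means, days 16, 23, 5, 3 and 1 and then the chemostats from slow to fast, the neighbours that did not differ were days 16 and 23, days 5 and 3, and all neighbouring chemostats.

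TRM1, the other zinc cluster activator, rose and fell again. Its log2 ratios in the retentostat were 0.78, 0.68 and 0.79 on day 1, 1.02, 1.00 and 0.90 on day 3, 1.07, 1.04 and 1.08 on day 5, 0.79, 0.91 and 0.81 on day 16, and 0.82, 0.72 and 0.71 on day 23. In the chemostats they were 0.88, 0.72 and 0.68 at 0.025 h−1, 0.23, 0.31 and 0.41 at 0.05 h−1, 0.20, 0.14 and 0.38 at 0.075 h−1, and 0.41, 0.37 and 0.36 at 0.1 h−1. The replicates of day 5 lay above those of every other condition, and the 3 faster chemostats lay below all others, separations whose share among all probes was not counted.

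The highest mean of TRM1, on day 5, stood out from both ends of the retentostat run but not from day 3 (0.091 higher, adjusted p = 0.35). Day 3 was already 0.22 above day 1 (SE 0.062, adjusted p = 0.0055), where 44.6% of all probes were called. With 1 dye orientation alone that rise was 0.26 in Cy3 (adjusted p = 0.052) and 0.18 in Cy5 (adjusted p = 0.18). Day 5 (1.06 ± 0.022) was 0.31 above day 1 (0.75 ± 0.062, SD, n = 3 each), with an SE of 0.062 and an adjusted p of 0.00016, where 59.3% of all probes were called. By day 23 (0.75 ± 0.059) the level had dropped by 0.31 from day 5 (SE 0.062, adjusted p = 0.00019). In the comparison of day 23 with day 5, which called 51.6% of all probes, MIT1 was higher by 0.31 (adjusted p = 3.0e-05), TRM1 was lower, and MXR1 was not called (−0.075, adjusted p = 0.35). On arrays with the culture in Cy5 alone, the rise of TRM1 to day 5 was 0.24 (adjusted p = 0.054) and its later drop was −0.21 (adjusted p = 0.10), while the F test over the 5 days on all arrays gave an adjusted p of 0.00012. Day 23 and day 1 differed by −0.0024 (95% confidence interval −0.13 to 0.13, adjusted p = 0.97), so the slope over run time, −0.0087 per doubling (adjusted p = 0.50), does not describe this course.

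In the chemostats TRM1 changed between 0.025 and 0.05 h−1. The level was 0.76 ± 0.11 at 0.025 h−1 against 0.31 ± 0.090 at 0.05 h−1 (SD, n = 3 each), a difference of 0.44 (SE 0.062, adjusted p = 6.6e-06) that was larger in size than that of 94.6% of all probes. In this comparison MXR1 was also higher, by 0.29 (SE 0.065, adjusted p = 0.00081), but by 0.11 (adjusted p = 0.39) on arrays with the culture in Cy3 alone. MIT1 was not called (0.088, adjusted p = 0.17), and 46.5% of all probes were called. Above 0.025 h−1 no fall of TRM1 with dilution rate was seen. It was −0.068 at 0.05 h−1 (95% confidence interval −0.20 to 0.060, adjusted p = 0.38) and −0.14 at 0.075 h−1 (−0.27 to −0.016, adjusted p = 0.11) relative to 0.1 h−1. Without replicate 3 at 0.075 h−1, which lies apart from its group, the second value was −0.22 (adjusted p = 0.020). On the slide shared by 1 array each of 0.05 and 0.1 h−1, with opposite dyes, TRM1 at 0.05 h−1 was −0.40 relative to 0.1 h−1. That 0.1 h−1 array (0.66 with the culture in Cy3) belongs to the replicate with the widest dye gap of TRM1, whose Cy5 array read 0.16. The slope over all 4 chemostats was −0.21 per doubling of the dilution rate (SE 0.029, adjusted p = 8.5e-07). As with MXR1, day 23 and the chemostat at 0.025 h−1 did not differ in TRM1 beyond the spread (−0.0083, 95% confidence interval −0.14 to 0.12), whereas MIT1 was 0.93 higher on day 23 (SE 0.052, adjusted p = 6.4e-14). Of all probes, 76.3% were called in that comparison. By mean, TRM1 ran from day 5 through days 3 and 16, 0.025 h−1 and days 1 and 23 to 0.1, 0.05 and 0.075 h−1, and the single neighbouring pair that differed was day 23 and 0.1 h−1.

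Set against the common baseline of 0.1 h−1, the 3 factors were all called higher on each of the 5 retentostat days. For days 1, 3, 5, 16 and 23 in this order, 42.2%, 43%, 44%, 46% and 46% of all probes were called higher and 78.2%, 82.4%, 83.5%, 84.1% and 84.3% were called in either direction, so a call in 3 of 3 genes is not a result about these genes. Likewise, none of the 3 overlapped between the replicates of day 23 and those at 0.1 h−1, and neither did 88.4% of all probes. The sizes say more. On day 23 MIT1 was 1.07 higher (SE 0.052, adjusted p = 1.7e-15), MXR1 0.52 higher (SE 0.065, adjusted p = 8.5e-08) and TRM1 0.37 higher (SE 0.062, adjusted p = 7.3e-06). Regardless of sign, these changes exceeded those of 81.7% of all probes for MIT1, 52.1% for MXR1 and 40.4% for TRM1. The median change of all probes was 0.058 and the median size of a change, without its sign, was 0.49, so that MXR1 was close to the median and TRM1 below it.

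The criterion of more than 2-fold was met by MIT1 alone, on day 16 (2.12-fold) and on day 23 (2.10-fold). Of all probes, 20.2% met it on day 16 and 20.8% on day 23. With median centring in place of LOESS both changes of MIT1 stayed called but fell just short of 2-fold, at 0.89 on the log2 scale on each day. The largest change of MXR1 was 0.73 on day 3 (1.66-fold, adjusted p = 2.9e-10) and that of TRM1 was 0.68 on day 5 (1.61-fold, adjusted p = 3.0e-10). In the chemostats, 3 factors were called higher at 0.025 h−1, where 36.7% of all probes were, and 1 factor, MXR1, was called at 0.05 h−1 (30.1% of all probes higher) and at 0.075 h−1 (10.2% higher). The 8 comparisons share the replicates at 0.1 h−1 and are not independent of each other.

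**Figure D2:**
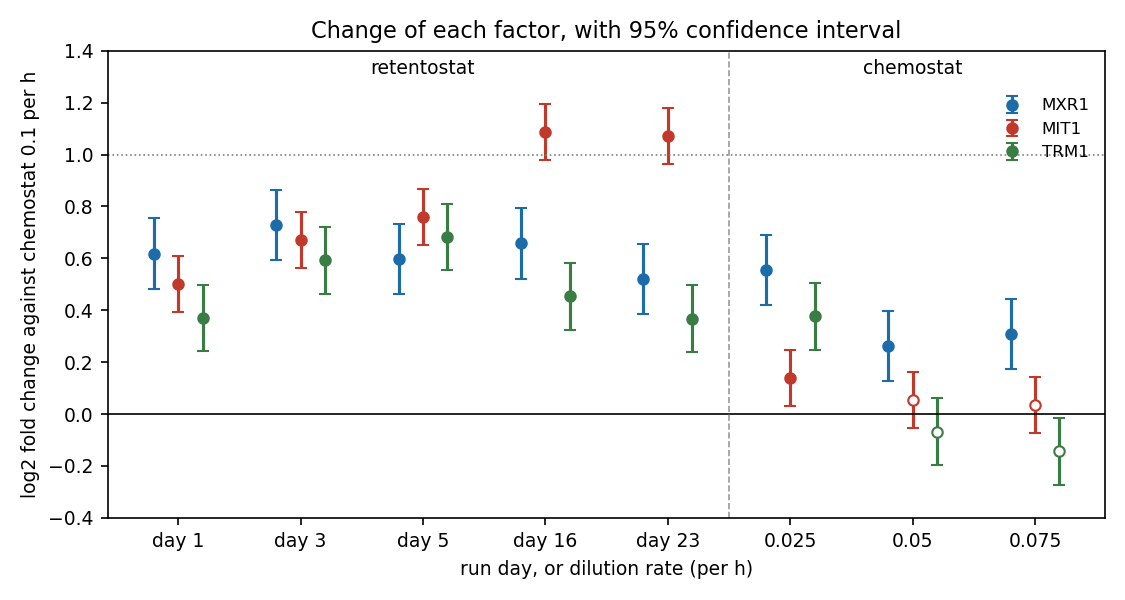
Log2 fold change of each factor against the chemostat at 0.1 h−1, with 95% confidence intervals from the limma model, for 5 retentostat days and 3 slower chemostats, where filled symbols have an adjusted p below 0.05 and the dotted line marks 2-fold. MIT1 crosses the 2-fold line on days 16 and 23 (1.09 and 1.07), and the open symbols are MIT1 and TRM1 at 0.05 and 0.075 h−1.

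Whether the factors changed by different amounts was tested on the difference of 2 factors within each replicate. On day 23 relative to 0.1 h−1, MIT1 changed by 0.55 more than MXR1 and by 0.70 more than TRM1, and MXR1 changed by 0.15 more than TRM1, with no overlap between the 3 replicates of each condition. Between days 23 and 1, a comparison added after the values were seen, MIT1 changed by 0.67 more than MXR1 and by 0.57 more than TRM1, again without overlap. For these 5 differences the two-sided exact permutation test gave p = 0.1 (n = 3 each), the smallest value that 3 against 3 allows, and 0.12 after adjustment over 6 tests. The sixth, MXR1 and TRM1 between days 23 and 1, was −0.094 with overlap (exact p = 0.8). Since 3 against 3 allows no value below 0.1, this test cannot decide whether the factors changed by different amounts. How many differences between other pairs of probes separate in this way was not counted. Of single probes, 88.4% had no overlap between day 23 and 0.1 h−1, so the separation alone is not a result about these factors.

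Each replicate was read on 2 arrays of opposite dyes. With the culture in Cy5, MXR1 read higher than with the culture in Cy3 by a median of 0.16 over the 27 pairs (range −0.50 to 0.46), and it was higher in 21 of them. The median gap was 0.042 for MIT1 (range −0.33 to 0.33), also higher in 21 pairs, and 0.060 for TRM1 (range −0.50 to 0.34), higher in 17 pairs. The widest gap of MXR1 was in replicate 1 at 0.05 h−1 (0.42 in Cy5 and 0.92 in Cy3), and the widest of TRM1 was in replicate 1 at 0.1 h−1 (0.16 in Cy5 and 0.66 in Cy3), each of which had its arrays on separate slides. Each single orientation gave the same direction on day 23 against 0.1 h−1 for all 3 factors. For MXR1 the change was 0.66 with Cy5 and 0.38 with Cy3, for MIT1 it was 1.10 with Cy5 and 1.04 with Cy3, and for TRM1 it was 0.41 with Cy5 and 0.32 with Cy3.

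**Figure D3:**
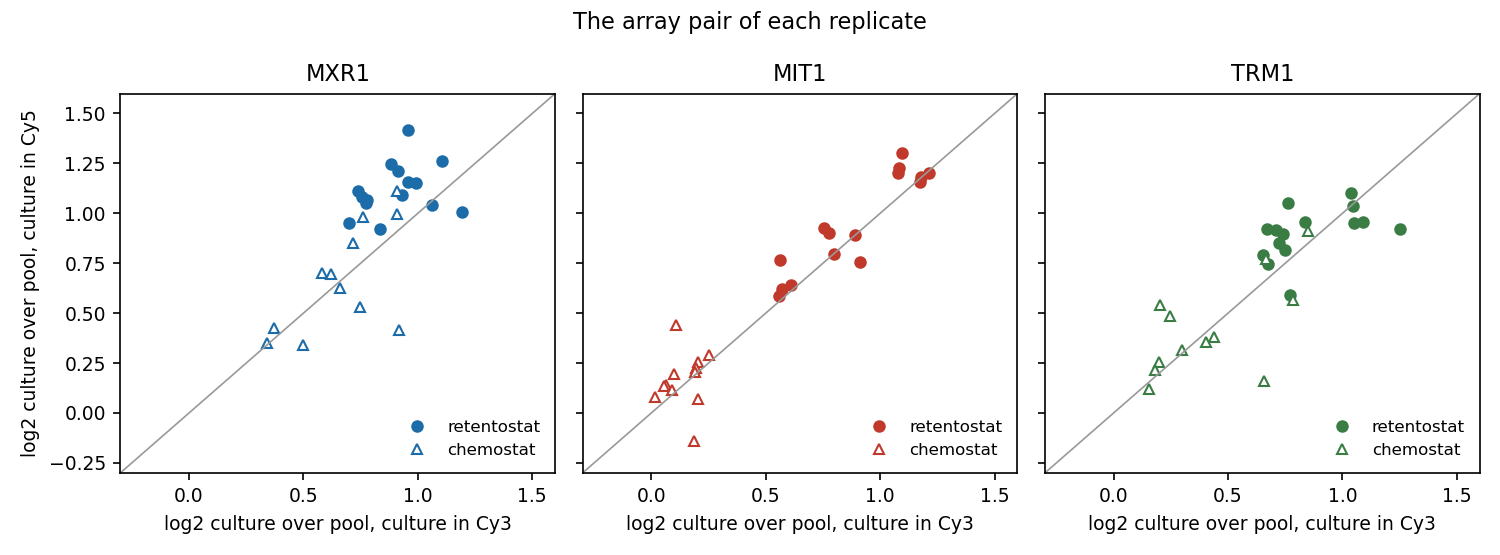
Log2 ratio of culture over pool on the array with the culture in Cy5 (vertical axis) against the array with the culture in Cy3 (horizontal axis) for 27 replicates of each factor, filled for the retentostat and open for the chemostats, with the line of equal values. MXR1 and MIT1 each lie above the line in 21 of 27 pairs and TRM1 in 17, with median gaps of 0.16, 0.042 and 0.060.

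Slides held several conditions, so the main changes could be read within a slide. On the 1 slide that held both day 23 and 0.1 h−1, the change was 1.09 for MIT1, 0.54 for MXR1 and 0.33 for TRM1, and with the slide as a block in a fit of single arrays it was 1.08, 0.46 and 0.33 in that order, each with an adjusted p of 0.00058 or less. The gain of MIT1 between days 23 and 1 was 0.56 and 0.58 on the 2 slides that held both days and 0.60 with the slide as a block (adjusted p = 4.8e-12). The values of day 3 against 0.1 h−1 on 3 slides ranged from 0.60 to 0.69 for MIT1, from 0.42 to 0.85 for MXR1 and from 0.41 to 0.82 for TRM1. On day 5 the values of 2 slides were 0.76 for MIT1 on both, 0.48 and 0.72 for MXR1, and 0.56 and 0.89 for TRM1.

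The probes with the most similar course over the 9 condition means were found by Pearson correlation among 5071 probes that were well above background on all arrays. The means share the pool and fall into the 2 culture systems, so high values are common, and r exceeded 0.9 for 218 probes with MXR1, 869 with MIT1 and 466 with TRM1. No annotation used here gives the roles of these genes, but by identifier PAS_chr3_0867, named below, was on the planned list of methanol enzymes. Among the 5 nearest to MIT1 were PAS_chr3_0987 (r = 0.995), PAS_c121_0018 (r = 0.993), PAS_chr3_0028 (r = 0.996) and PAS_chr3_0867 (r = 0.993), which on day 23 were 4.47, 1.72, 1.62 and 1.36 higher than at 0.1 h−1 on the log2 scale. PAS_chr3_0987 was also 2.51 higher on day 23 than on day 1 (adjusted p = 7.6e-15), and so followed the course of MIT1 with a far wider range. Among the 5 nearest to MXR1 were PAS_chr3_0653 (r = 0.966), PAS_chr3_0044 (r = 0.976), PAS_chr1-1_0009 (r = 0.974) and PAS_chr2-1_0661 (r = 0.962). The changes of all 5 on day 23 lay between 0.35 and 0.84. Among the 5 nearest to TRM1 were PAS_chr3_0188 (r = 0.977), PAS_chr2-1_0592 (r = 0.982), PAS_chr2-1_0647 (r = 0.979) and PAS_chr2-1_0156 (r = 0.983). Here the changes of all 5 lay between 0.17 and 0.87. None of the 3 factors was among the nearest probes of another, and the closest, TRM1, was in place 732 in the list of MXR1. Their courses over all 9 means, which span both culture systems, gave r of 0.84 for MXR1 and TRM1, 0.74 for MIT1 and TRM1, and 0.71 for MXR1 and MIT1. Over the 5 retentostat means alone, r was 0.40, −0.20 and −0.37 in this order, and over the 4 chemostat means 0.64, 0.84 and 0.94. These values were not tested.

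The genes that flank each factor in the GS115 gene order (5 on each side, all on the array) were read as well. Their values stand beside the 84.3% of all probes called in this comparison, 46% as higher and 20.8% with more than 2-fold. Around MXR1, 4 neighbours were higher and 5 lower on day 23 than at 0.1 h−1, with a median of −0.15, and 5 of them were changed by more than 2-fold. The gene next to MXR1, PAS_chr4_0488, was 2.41 higher (SE 0.049, adjusted p = 2.9e-22), a larger change than that of MXR1 itself, while PAS_chr4_0490 changed by 1.27, PAS_chr4_0489 by −1.17 and PAS_chr4_0493 by −1.55. Around MIT1, 4 neighbours were higher and 2 lower, with a median of 0.065. The largest of these were PAS_chr3_0839 (1.13, SE 0.089), PAS_chr3_0832 (0.94, SE 0.26), PAS_chr3_0834 (0.90, SE 0.22) and PAS_chr3_0831 (0.66, SE 0.10), all with an adjusted p of 0.0018 or less. By identifier, PAS_chr3_0832 and PAS_chr3_0834 were on the planned list of methanol enzymes, as was a lower neighbour of MIT1 at −0.34. The rest of that list was not read, so these values do not describe the pathway. Whether this stretch is a neutral background for MIT1 was not tested, and the annotation used gives no products to check that list. The rise of MIT1 itself (1.07) was second to PAS_chr3_0839 in this stretch. Around TRM1, 6 neighbours were higher and 3 lower, with a median of 0.32 that is close to the change of TRM1. The changes there were led by PAS_chr4_0198 (−2.17), PAS_chr4_0205 (0.95, with 6 of 27 replicates without a value), PAS_chr4_0206 (0.73) and PAS_chr4_0207 (0.66).

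**Figure D4:**
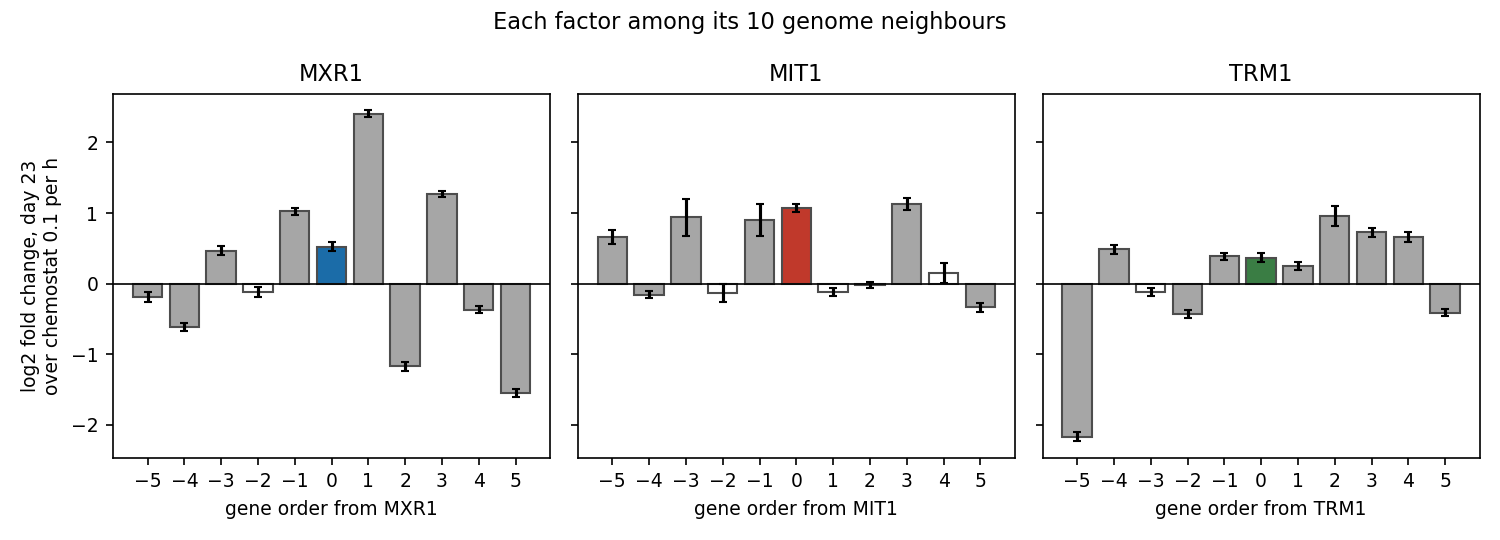
Log2 fold change of day 23 over the chemostat at 0.1 h−1 for MXR1, MIT1 and TRM1 (coloured, position 0) and the 5 genes on each side in gene order, with SE and with white bars for an adjusted p of 0.05 or more. Neighbours of MXR1 run from −1.55 to 2.41, whereas MIT1 (1.07) has a single neighbour with a larger change (1.13).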

How the data were processed

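RNA of 27 replicates from 9 conditions was measured on 54 two-color arrays. Per spot, the scanner files deposited hold median signals and the local background as raw intensities, beside outlier and background marks. Per the file headers, the same output holds a log10 ratio per spot from the scanner software (Agilent Feature Extraction 11.5.1.1). Log2 ratios that the authors made with normexp, LOESS and Aquantile in limma were also deposited. By correlation with the scanner files, 18 of their 54 columns ran as pool over culture, so they served as an alternative only. Precision is limited by how many independent cultures there are. The median SD over numbered replicates was 0.057, a spread that may be partly technical.

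Signals were background corrected (normexp, offset 50) and LOESS-normalized in limma 3.58.1 (R 4.3.3, statmod 1.5.0), with weight 0 for control spots and for spots marked as outliers (0.676%). Aquantile leaves log2 ratios as they are. Spots, then dye orientations, were averaged. A model with 9 condition means and eBayes was fitted to 5371 probes (18 residual and 5.38 prior degrees of freedom), with Benjamini-Hochberg adjustment over all probes. A gene was called at an adjusted p below 0.05 and differentially expressed if also changed by more than 2-fold. Slopes and moderated F tests within each system came from the same model. Differences between factors were tested by two-sided exact permutation.

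Named genes were the 3 factors, and at most 4 of the 5 probes most like each and of the 10 genome neighbours of each, those with the largest change on day 23. The factors and lists were chosen with earlier results of these data known. The annotation used (ASM2700v1, 5040 of 5318 names matched) gives identifiers without products, so lists of methanol enzymes, peroxisomal genes, transcription factors and catabolite control were not applied. Identifiers on the enzyme list were marked only where they fell among the most similar probes or the genome neighbours. Alternatives covered background correction, normalization, the scanner's ratio, the deposited table as given and with turned columns, outlier and background marks, dyes, slides, scanners, replicate number, groups in the fit, thresholds and each replicate left out. The procedure was tested on simulated data.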

Additional observations from a re-analysis of the deposited data

How the results depend on the processing

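The higher level of all 3 factors on each of the 5 retentostat days against 0.1 h−1, of MXR1 and TRM1 at 0.025 h−1, of MIT1 on day 23 against day 1, and the slopes of MXR1 and TRM1 over dilution rate and of MIT1 over run time were called under every alternative other than the deposited table as given, including each of the 27 replicates left out. Over these alternatives the change on day 23 ranged from 0.89 to 1.18 for MIT1, from 0.38 to 0.66 for MXR1 and from 0.32 to 0.41 for TRM1. With the replicate number as a block it was 1.07 for MIT1 (adjusted p = 5.6e-15), 0.52 for MXR1 and 0.37 for TRM1, and the block changed no other call. Same-numbered replicates did not deviate together (mean r 0.016, 33 of 108 pairs over 0.1, 12 of 27 replicates closest to their own number), so the numbers were not taken as pairs. Since the culture behind each number is not stated, this check cannot show that the retentostat days are independent.

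For MIT1 at 0.025 h−1 the change was 0.0051 with median centring, 0.11 with Cy3 arrays only, 0.17 with Cy5 arrays only, 0.12 with the slide as a block and 0.12 to 0.16 with a replicate left out, and the main value of 0.14 (adjusted p = 0.022) failed a threshold of 0.01. The slope of MIT1 over dilution rate was −0.0070, −0.058, −0.077 and −0.062 under the first 4 of these settings, with −0.076 to −0.059 when a replicate was left out, and the main slope of −0.068 (adjusted p = 0.019) failed that threshold as well. MXR1 was not called at 0.05 h−1 with Cy5 arrays only (0.18) or the slide as a block (0.20), nor at 0.075 h−1 with Cy3 arrays only (0.26) or the slide as a block (0.27). The cause was not tested. Values near 0 changed sign. MIT1 was −0.032 at 0.05 h−1 and −0.034 at 0.075 h−1 with median centring, −0.00016 at 0.075 h−1 with Cy3 arrays only, and −0.0099 to 0.12 at 0.05 h−1 with a replicate left out. TRM1 at 0.075 h−1 was −0.22 to −0.092 with a replicate left out. TRM1 on day 23 against day 1 was 0.00082 with offset 0, 0.030 with median centring, 0.015 with the scanner's ratio, 0.035 with Cy5 arrays only, 0.036 with the slide and 0.0049 with the scanner as a block, and −0.038 to 0.019 with a replicate left out, and its slope over run time was 0.0088 with Cy5 arrays only and 0.0012 with the slide as a block.

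MXR1 on day 5 against day 1 was 0.0018 with median centring, 0.090 with Cy3 arrays only, 0.037 with the slide as a block and −0.069 to 0.068 with a replicate left out. With Cy5 arrays only, MXR1 was −0.023 on day 3 and −0.017 on day 16 against day 1, and 0.0046 on day 23 against 0.025 h−1, and TRM1 was 0.061 on day 23 and 0.025 on day 1 against 0.025 h−1. MXR1 on day 1 against 0.025 h−1 was −0.013 with median centring, −0.030 with Cy3 arrays only and −0.028 to 0.11 with a replicate left out. With a replicate left out, MXR1 on day 16 against day 1 was −0.0073 to 0.13, and TRM1 against 0.025 h−1 was −0.048 to 0.056 on day 1 and −0.050 to 0.053 on day 23.

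In the deposited table as given, columns of opposite direction are averaged by construction. Against 0.1 h−1, MXR1, MIT1 and TRM1 were there at −1.13, −0.64 and −0.87 on day 1, −0.52, −0.26 and −0.41 on day 3, 0.30, 0.24 and 0.25 on day 5, 0.23, 0.32 and 0.19 on day 16, 0.76, 1.10 and 0.63 on day 23, and 0.81, 0.18 and 0.64 at 0.025 h−1. MXR1 was 0.52 at 0.05 h−1 and 0.042 at 0.075 h−1, and TRM1 was 0.20 at 0.05 h−1. Day 23 against day 1 was 1.89 for MXR1 and 1.50 for TRM1, and the slopes over run time were 0.37 for MXR1 and 0.29 for TRM1. The slopes over dilution rate were −0.44, −0.096 and −0.34. MXR1 was 1.43 on day 5 against day 1, 0.46 on day 23 against day 5 and −1.94 on day 1 against 0.025 h−1, TRM1 was 0.37 on day 23 against day 5, MXR1 was 1.28 and TRM1 was 1.03 on day 23 against day 3, and MIT1 was −0.82 on day 1 against 0.025 h−1. With the opposite columns turned, all 60 values kept their direction and call.

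Of the 10 neighbours of MXR1, MIT1 and TRM1, 5, 1 and 1 were differentially expressed on day 23, against 9, 6 and 9 without the 2-fold criterion and 0 for each in the deposited table as given. The count was 2 for MIT1 and for TRM1 with the scanner's ratio, with Cy5 arrays only and with the scanner as a block, 3 for MIT1 and 2 for TRM1 with the slide as a block, 2 for TRM1 with offset 0, and 1 to 3 for MIT1 and 1 to 2 for TRM1 with a replicate left out. Over the 27 replicates in place of the 9 means, 2 of the 5 probes most like MXR1 and 3 of 5 for MIT1 and TRM1 stayed among the nearest 5.

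With 1 probe per gene and 3 numbered replicates from fewer cultures, differences of about 0.1 on the log2 scale are not resolved here, and the ratios carry no information on transcript numbers per cell, on protein or on factor activity. The lists of pathway genes planned for this gene set were not run because no annotation used here gives products.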
